A study of Mus musculus with 4 samples.

Results

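The genes described here encode 9 proteins that join basal epithelial cells to the basement membrane: the integrin chains Itga6, Itgb4, Itga3 and Itgb1, the transmembrane collagen Col17a1, the cytolinkers Dst and Plec, and the laminin chains Lama3 and Lamb3. They were chosen for their known role, not by a rule on their values, but with earlier results of these data known. Every probe set annotated with exactly 1 of these symbols was taken, which gave 23 of the 45101 probe sets on the array. Each gene was then represented by its probe set of highest mean over the 4 arrays, giving 9 of the 18193 genes measured. 3 of the 9 genes had a single probe set (Itgb4, Col17a1 and Lamb3).

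The study compared hair follicle stem cells (HFSCs, which renew the follicle in each hair cycle) that lack the microRNA miR-205 with wild-type cells. The 4 arrays were 2 of miR-205 knockout (KO) and 2 of wild-type (WT) cells. All came from skin of C57BL/6 mice at postnatal day 4 and were sorted by flow cytometry, and the titles number the arrays 1 and 2 in each genotype as biological replicates. The labels do not name the sort markers, the knockout allele or the number of animals. The p-values therefore reflect how these 4 samples scatter, which may be technical. The moderated test (limma) also draws on the scatter of all genes. The treatment text that all 4 samples carry is about mice in which doxycycline switches on miR-203 (K14-rtTA/TRE-miR-203/K14-H2BGFP), and it was not used to assign groups.

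In skin, hemidesmosomes are the junctions that rivet the basal cell to its basement membrane. Integrin alpha6 pairs with beta4 and binds laminin-332 outside the cell, and the plakins plectin and BP230 tie it to the keratin filaments inside. Alpha3 paired with beta1 binds the same laminin but links to actin. Inherited loss of several of these proteins causes blistering of the skin.

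The missing microRNA is read out through its seed, the bases that pair with target messages. Its major mature strand in RefSeq (GRCm38.p6, minus strand, chr1:193507503-193507524) is shown because it defines the genotype, with the seed, bases 2 to 8, in capitals.

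mmu-miR-205-5p: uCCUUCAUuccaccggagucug

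Lamb3 is a neighbour of this microRNA on the chromosome. A window before 1 of its RefSeq starts (chr1:193301744-193301993, plus strand) ends 205.5 kb from the miR-205-5p sequence. In RefSeq (GRCm38.p6), 3 annotated genes lie between Lamb3 and Mir205, of which 1 codes for protein (Camk1g). Camk1g, a calmodulin-dependent kinase gene, had dim values of 5.34 and 5.64 in KO and 5.34 and 5.67 in WT cells, and its KO minus WT difference was -0.018 (log2, SE 0.18). Mir205hg, the host gene of the microRNA, was at 6.52 and 6.13 in KO and at 5.81 and 5.30 in WT cells. Its difference was 0.77 (SE 0.26), which did not pass the adjusted threshold of 0.05 with limma.

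Dst makes an epithelial protein, BP230, and longer neuronal and muscle forms from different starts. The 4 Dst probe sets described below did not give 1 value, and which start each of them reads was not tested. Both RefSeq start windows are printed. Each is the 250 bases before the start, plus strand, GRCm38.p6, with the GC box (GGGCGG on either strand, overlaps allowed) in capitals. The upstream one is chr1:34011345-34011594 and the downstream one is chr1:34160010-34160259.

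Dst upstream start: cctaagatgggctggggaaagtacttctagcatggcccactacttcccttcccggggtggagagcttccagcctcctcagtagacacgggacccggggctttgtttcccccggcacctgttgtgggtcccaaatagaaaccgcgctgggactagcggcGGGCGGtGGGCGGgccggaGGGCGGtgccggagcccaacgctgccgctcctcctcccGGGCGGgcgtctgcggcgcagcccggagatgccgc

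Dst downstream start: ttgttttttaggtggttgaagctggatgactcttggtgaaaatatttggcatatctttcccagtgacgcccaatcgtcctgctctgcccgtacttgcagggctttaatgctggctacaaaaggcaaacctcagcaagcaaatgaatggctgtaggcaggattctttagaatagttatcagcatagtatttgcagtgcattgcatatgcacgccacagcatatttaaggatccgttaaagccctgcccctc

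The upstream window was 68.8% G and C with 4 GC boxes, and the downstream one was 45.2% G and C with none. The GC box occurs in 32.7% of 32817 RefSeq windows of this length. 5 of the 9 genes had such windows (Itgb1, Itga3, Col17a1, Dst and Lamb3, 8 windows in all). Of these 8 windows 4 held a GC box, 1 a TATA box (TATAAA on either strand, in 12.4% of all windows) and none the AP-1 motif (TGANTCA on either strand, in 6.75% of all windows). These are matches of letters only.

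No gene of the 9 passed the test between genotypes. The values below are the authors' log2 expression values, a difference is KO minus WT on that scale, and the SE is limma's moderated standard error with 2 arrays per group. The limma adjusted p was 1 for each of the 9, over all 18193 genes, of which 2 (0.0110%) were past the threshold of 0.05. Lama3 alone of the 9 had an unadjusted p under 0.05, against 1.88% of all genes. The KO mean was higher for 7 of the 9 and lower for Itgb1 and Col17a1. Of all 18193 genes, 9631 had a higher and 8195 a lower KO mean, which is the background for the direction counts of each list below. The median difference was 0.12, against 0.0082 over all genes, and the differences ran from -0.0060 to 0.22. Without KO 1 that median was 0.018, without KO 2 it was 0.20 and without WT 2 it was 0.059. Probe sets differ in how they bind, so levels are not ranked between genes.

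Itga6, the alpha chain of the hemidesmosome integrin, was at 11.95 (number 1) and 11.53 (number 2) in KO cells and at 11.81 and 11.39 in WT cells. The number 1 arrays were high and the number 2 arrays low in both genotypes, and the KO and WT values overlapped. The difference was 0.14 (SE 0.24), the same to 2 decimals within number 1 (0.14) and number 2 (0.14). With 1 array left out it was -0.072 without KO 1, -0.068 without WT 2, and 0.35 without KO 2 or without WT 1. Its 95% interval of -0.62 to 0.90 was the widest of the 9 genes, because arrays of 1 genotype lay so far apart. The gap between numbers was 0.42 on average in this probe set and 0.46 in the second one of Itga6. That second probe set was at 10.49 and 10.10 in KO and at 10.55 and 10.02 in WT cells, and its genotype difference was 0.010.

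Itgb4, the beta chain that pairs only with alpha6 and carries the long tail bound by plectin, was at 9.35 and 9.08 in KO and at 9.08 and 9.0 in WT cells. KO 1 stood above the other 3 arrays, and KO 2 and WT 1 held the same value. The difference was 0.18 (SE 0.12), and it was 0.27 within number 1 against 0.083 within number 2. It was 0.041 without KO 1 and 0.31 without KO 2.

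Itga3, the alpha chain of the laminin receptor that joins beta1, was at 8.68 on KO 2 and at 8.66 on each of the 3 other arrays, which shared 1 value. Its difference was 0.0090 with a 95% interval of -0.11 to 0.13. Its other probe sets differed by -0.0044 and -0.066. Itgb1, the beta chain shared by most laminin and collagen receptors, was at 10.26 and 10.14 in KO and at 10.32 and 10.09 in WT cells. WT 1 was highest and WT 2 lowest, so the KO values lay inside the WT range. The difference was -0.0060 (95% interval -0.36 to 0.35), with -0.060 within number 1 and 0.048 within number 2.

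Col17a1, the collagen XVII of the hemidesmosome (BP180), varied little. It was at 11.94 and 11.89 in KO and at 11.93 and 11.91 in WT cells, with overlapping groups. The difference was -0.0031, with a 95% interval of -0.14 to 0.14.

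Dst was at 12.09 and 11.94 in KO cells and at 11.73 and 11.89 in WT cells. Both KO arrays lay above both WT arrays, and WT 1 was the lowest. The difference was 0.21 (SE 0.097), made up of 0.36 within number 1 and 0.051 within number 2, and it was 0.13 without WT 1 and 0.13 without KO 1. The next brightest probe set of Dst, annotated to the same transcript record, set WT 1 further apart. It was at 11.61 and 11.55 in KO, at 10.75 on WT 1 and at 11.44 on WT 2. Its difference was 0.48 (SE 0.28), with 0.85 within number 1 and 0.11 within number 2. The other two are annotated to other records. In 1 of them WT 1 was the highest array, at 8.97 against 8.91 and 8.82 in KO cells and 8.63 on WT 2, with a difference of 0.069. In the dimmer one the KO values were 6.78 and 6.76 and the WT values 6.74 and 6.44, a difference of 0.18.

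Plec, which encodes the cytolinker plectin, was at 10.32 and 10.18 in KO and at 10.19 and 10.15 in WT cells. KO 1 was above the other 3, which lay close together. The difference was 0.079 (SE 0.070), with 0.13 within number 1 and 0.028 within number 2. It was 0.0084 without KO 1 and 0.15 without KO 2. Its 2 dimmer probe sets differed by 0.020 and 0.095. 1 of them was at 6.48 and 6.32 on the number 1 arrays of KO and WT cells and at 5.84 and 5.82 on the number 2 arrays.

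Both laminin genes encode chains of laminin-332, the extracellular ligand of both integrins. Lama3, the alpha3 chain, was at 10.54 and 10.51 in KO cells and at 10.31 on both WT arrays, so KO lay above WT without overlap. The difference was 0.22 (SE 0.039, 95% interval 0.094 to 0.34, limma unadjusted p = 0.011, adjusted p = 1), with 0.23 within number 1 and 0.20 within number 2. The WT values were equal, so the WT arrays added no spread to that SE. The other Lama3 probe set was dim, at 4.92 and 5.12 in KO and 5.12 and 5.12 in WT cells, and differed by -0.10. Lamb3, the beta3 chain, was at 10.20 on KO 1 and 10.03 on KO 2, and at 9.98 on WT 1 and 10.02 on WT 2. The groups did not overlap, but KO 2 exceeded WT 2 by 0.017, and the difference of 0.12 (SE 0.077) came mostly from number 1 (0.22). It was 0.037 without KO 1 and 0.20 without KO 2.

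**Figure D1:**
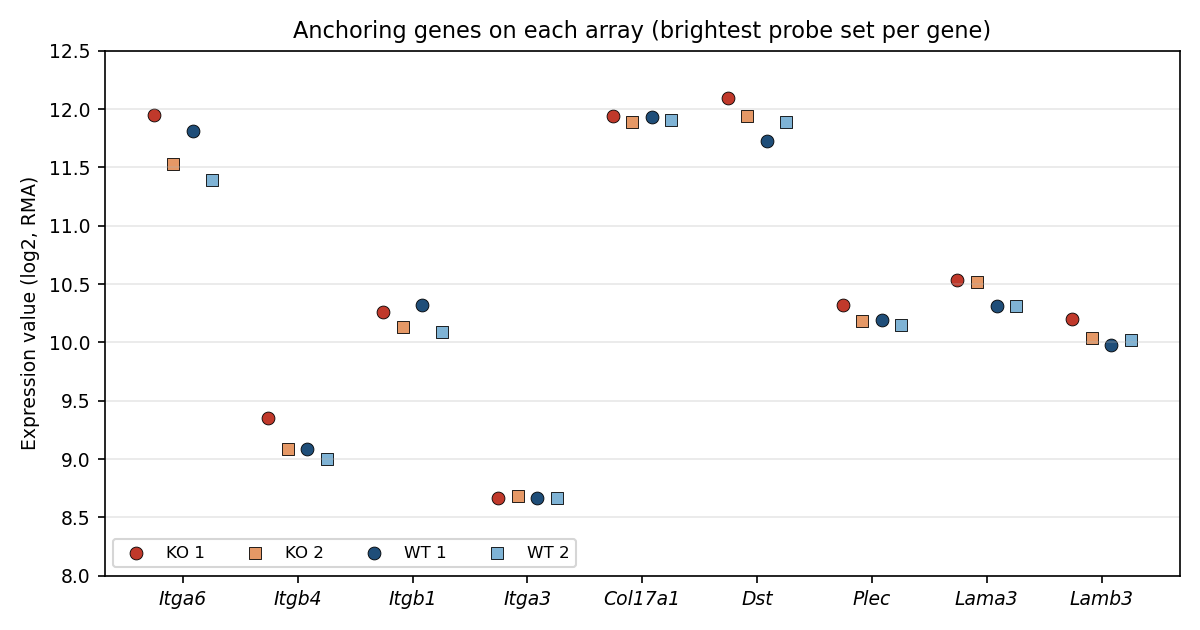
Expression value (log2, RMA) of the 9 anchoring genes on each of the 4 arrays, with circles for number 1, squares for number 2, reds for KO and blues for WT. Itga6 separates by replicate number (11.95 and 11.81 against 11.53 and 11.39), and Lama3 by genotype (10.54 and 10.51 against 10.31 on both WT arrays).

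Counted over arrays, 3 of the 9 genes (Dst, Lama3 and Lamb3) had both KO arrays above both WT arrays, against 8.20% of all genes, and none had both below, against 5.70% of all genes. 6 of the 9 were higher in KO within both numbers (Itga6, Itgb4, Dst, Plec, Lama3 and Lamb3), against 24.0% of all genes. KO 1 alone was the highest array for 7 of the 9. Over all genes the share was 33.4%, but this also counts genes where KO 1 only tied for the highest value. With 1 array left out, the count of 3 became 4 without KO 1, 7 without KO 2, 7 without WT 1 and 3 without WT 2. The shares of all genes above WT in the same sense were then 28.4%, 29.1%, 26.1% and 28.3%, so without WT 2, and to a lesser degree without KO 1, the count of the 9 was near that of all genes. Without WT 1 all 9 KO means were higher, without KO 2 8 were, and without KO 1 or WT 2 6 were.

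**Figure D2:**
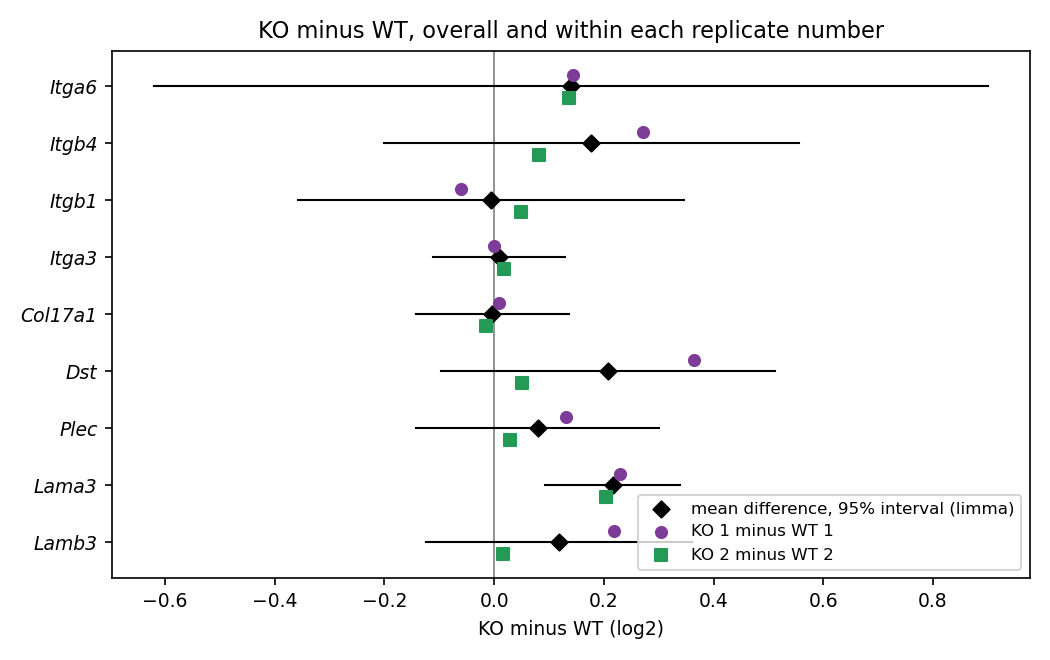
KO minus WT (log2) for the 9 anchoring genes, with diamonds for the mean difference, bars for its 95% limma interval, circles for KO 1 minus WT 1 and squares for KO 2 minus WT 2. Only the bar of Lama3 (0.094 to 0.34) lies wholly above 0, and for Dst the number 1 difference (0.36) is far from that of number 2 (0.051).

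The other probe sets did not all follow the brightest one. Of the 23 probe sets, 16 had a higher and 7 a lower KO mean. 6 had both KO arrays above both WT arrays, against 7.62% of the 34945 probe sets with 1 gene symbol, and none had both below, against 5.85%. 3 of these 6 were Dst probe sets, and probe sets of 1 gene are not independent. None passed the adjusted threshold when all 34945 were tested singly with limma. For 3 genes the signs were mixed (Itgb1, Itga3 and Lama3). The 5 other probe sets of Itgb1 differed by -0.0063 to 0.11, and 3 of these 5 were dim, under 4.3 on every array. In 9 of the 23 probe sets at least 2 arrays had exactly equal values, as in 47.1% of the whole table.

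**Figure D3:**
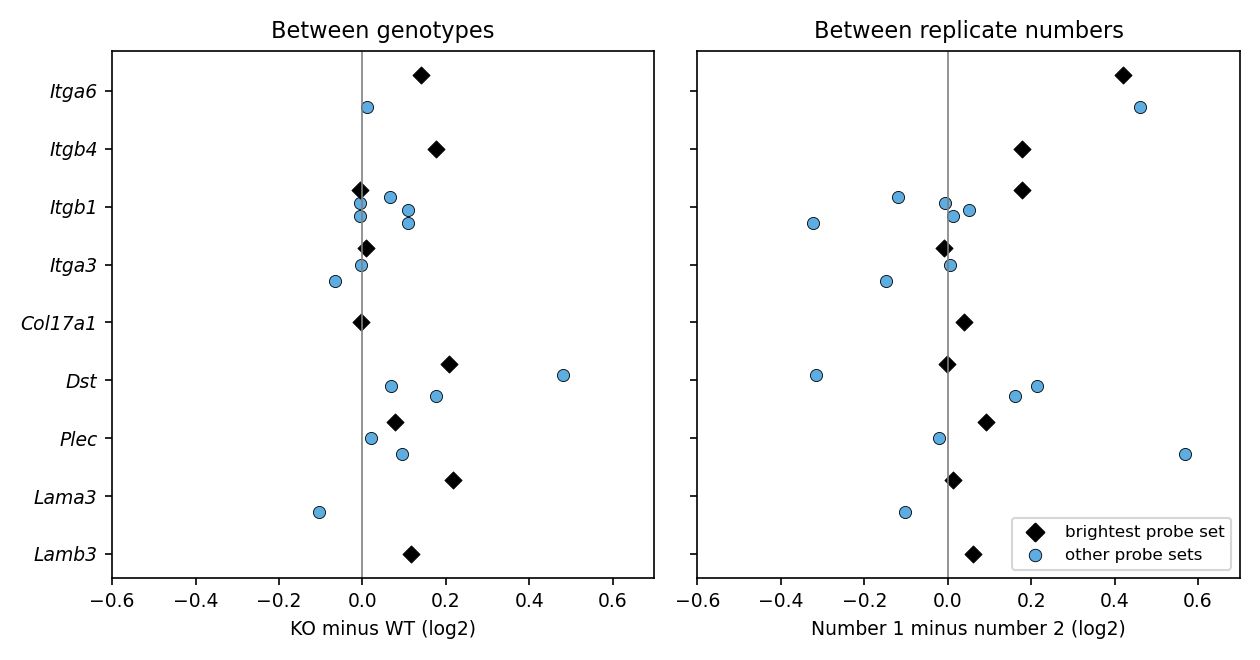
KO minus WT (log2, left) and number 1 minus number 2 averaged over the genotypes (log2, right) for every probe set of the 9 genes, with diamonds for the brightest probe set of a gene and circles for the others. The second Dst probe set is farthest right between genotypes (0.48), and both Itga6 probe sets lie far right between numbers (0.42 and 0.46).

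Some of these genes differed more between replicate numbers than between genotypes. Both number 1 arrays were above both number 2 arrays for 4 of the 9 (Itga6, Itgb1, Col17a1 and Plec), against 22.0% of all genes. None was the other way round by its brightest probe set, against 3941 of all 18193 genes. For Itga6 the mean gap between numbers, 0.42, was larger than its genotype difference of 0.14. Markers of dermal fibroblasts also differed between arrays. Their median over 14 genes ran from 10.67 (WT 1) through 9.60 (KO 1) and 8.79 (KO 2) to 8.37 (WT 2), and all 14 had their highest value on WT 1. Their summed log2 level ran from 124.6 to 135.7 in KO and from 120.9 to 151.6 in WT cells. The brightest probe set of Itgb1, which fibroblasts also express, followed that same order of arrays. So did the second Itga6 probe set and the third brightest Dst probe set. The next brightest Itgb1 probe set did not. It was at 9.47 and 9.61 in KO and 9.43 and 9.52 in WT cells, lowest on WT 1 and with number 2 above number 1. The 2 brightest Dst probe sets were also lowest on WT 1, and for 7 of the 9 genes the highest array was KO 1. The part of other cells in these values was not tested, and in such bulk samples fewer cells of a type cannot be told apart from less RNA per cell. Basal keratinocyte markers were high on all arrays, with a median over 9 genes between 11.88 and 12.21. The median of HFSC markers lay between 9.98 and 10.31 (10 genes), and none was below 5.87 on any array. The lowest HFSC marker value was 6.87 on KO 1, 6.69 on KO 2, 8.32 on WT 1 and 6.20 on WT 2. The medians therefore do not show that each defining marker of the labelled cell type was high. The medians were 5.62 to 6.17 for endothelial (10 genes), 6.67 to 6.89 for melanocyte (8 genes), 4.90 to 5.16 for immune (8 genes) and 5.37 to 5.81 for Schwann and muscle markers (6 genes). The 2 genes past the threshold were sex-linked. Xist, the RNA of the inactive X, was at 5.26 and 5.45 in KO and 13.28 and 13.19 in WT cells, and Eif2s3y, on the Y, at 9.59 and 9.57 against 3.05 and 2.86. Sex and genotype therefore cannot be told apart in any difference given here.

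The proteins that work beside the 9 were read from a list with 7 genes measured here. None of the 7 passed the adjusted threshold or had an unadjusted p under 0.05 with limma. 6 had a higher and 1 a lower KO mean, with a median of 0.11. The keratins that plectin and BP230 hold were the most regular. Krt5 was at 13.76 and 13.68 in KO and at 13.58 and 13.47 in WT cells (difference 0.20, SE 0.068). Krt14, its partner, was at 13.65 and 13.73 against 13.54 and 13.57 (0.13, SE 0.053), and Krt15, a keratin of the follicle bulge, at 13.83 and 14.05 against 13.62 and 13.78 (0.24, SE 0.12). Both KO arrays lay above both WT arrays for these 3 keratins and for Cd151, 4 of the 7 genes, against 8.20% of all genes. The same held for 1 of 28 basement membrane genes, 1 of 15 other integrins and 4 of 22 adhesion machinery genes described below. Both KO arrays lay below both WT arrays for 0, 1 and 1 of these. Of the 9 basal keratinocyte markers, which include Krt5 and Krt14, 5 had a higher and 4 a lower KO mean (median 0.026).

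Cd151, the tetraspanin that associates with laminin-binding integrins, was at 11.32 and 11.28 in KO and at 11.14 and 11.24 in WT cells (0.11, SE 0.057). It too showed no overlap, but 2 of its 5 other probe sets went the other way, by -0.040 and -0.13. Erbin, an adaptor that binds the beta4 tail, differed by 0.064 (SE 0.080). Its 3 other probe sets differed by -0.063 to -0.041. Col7a1, the collagen of the anchoring fibrils, was at 9.03 and 9.46 in KO and 8.98 and 9.49 in WT cells, so it separated by number and not by genotype, with a difference of 0.0096 (SE 0.27). Bcam, a receptor for laminin alpha5, was at 8.82 and 9.62 in KO and 9.20 and 9.54 in WT cells, and its difference of -0.15 (SE 0.35) had opposite signs within the numbers.

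Other components of the basement membrane went both ways, with 14 of 28 genes higher and 14 lower in KO cells and a median of -0.0012. None passed the adjusted threshold. Hspg2, the heparan sulfate proteoglycan perlecan, had the smallest p of the list. It was at 9.92 and 10.01 in KO and at 9.42 and 9.47 in WT cells, a difference of 0.52 (SE 0.059, limma unadjusted p = 0.0027, adjusted p = 1), with 0.50 within number 1 and 0.54 within number 2. Its second probe set, at 9.10 and 9.65 in KO and 9.09 and 9.58 in WT cells, differed by 0.042. Agrn, which encodes the proteoglycan agrin, differed by -0.11 (SE 0.075), and the laminin chain gene Lamc3 by 0.075 (SE 0.058).

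Of 15 other integrin genes measured, 8 were higher and 7 lower, with a median of 0.0093, and none passed. The 3 of smallest p were dim. Itgb3, the beta chain of the vitronectin receptor, was at 5.69 and 5.52 in KO and 6.45 and 5.76 in WT cells, a difference of -0.49 (SE 0.29), with WT 1 standing apart. Itga10 differed by 0.072 (SE 0.052) and Itga9 by -0.054 (SE 0.050).

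The cytoplasmic machinery that links beta1 integrins to actin had 15 of 22 measured genes higher and 7 lower, with a median of 0.034. None passed the adjusted threshold, and 1 had an unadjusted p under 0.05 with limma. That gene was Fermt2, which encodes kindlin-2, an activator of beta1 integrins. It was at 10.53 and 10.49 in KO and at 10.30 and 10.15 in WT cells, a difference of 0.29 (SE 0.071). Its 2 dimmer probe sets differed by 0.10 and -0.10. The scaffold gene Iqgap1 differed by 0.15 (SE 0.077), and its 6 other probe sets by -0.30 to 0.25. Lims1, which encodes the PINCH adaptor of integrin-linked kinase, differed by 0.17 (SE 0.11), and its 4 other probe sets by -0.11 to 0.18.

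**Figure D4:**
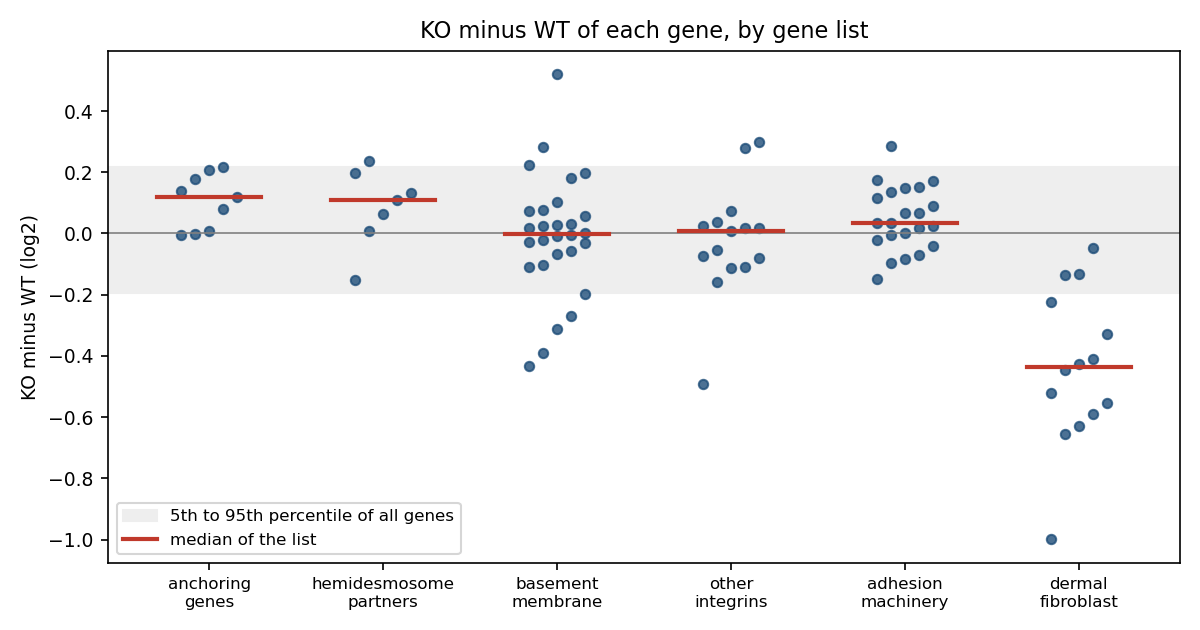
KO minus WT (log2) of each measured gene in 6 lists (points), with the median of the list as a red line and the range from the 5th to the 95th percentile of all genes, -0.19 to 0.22, in grey. The anchoring genes (median 0.12) and their partners (0.11) lie mostly above 0 and mostly inside the grey range. The fibroblast genes lie below 0 (median -0.44), but their median was -1.19 within number 1 and 0.31 within number 2.

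The mean pattern of the 9 genes over the 4 arrays, each gene centred on its own mean, was 0.13 and -0.022 in KO and -0.019 and -0.085 in WT cells. Of 4815 other genes at or above the mean of the dimmest of the 9, those nearest to it by Euclidean distance over the 4 arrays were Smarcad1 (distance 0.0145), Svil (0.018), Coq9 (0.019), Creld2 (0.021) and Septin7 (0.021). Their differences of 0.10 to 0.11 follow from that choice. With 4 arrays such likeness is a description only. Among the 9 themselves, Plec and Lamb3 were alike (distance 0.069), as were Itga3 and Col17a1 (0.053), which barely varied, and Itga6 and Dst were the least alike (0.45).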

How the data were processed

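The deposited table holds log2 expression values that the authors made with RMA, per the submitters' processing notes, from 4 one-colour Affymetrix arrays; no version is given in the sources used here. Values ran from 2.51 to 14.56. Without detection calls, low values may be background. The number of arrays limits the precision. Gene symbols came from GEO's platform annotation, updated by gene identifier from the GRCm38.p6 RefSeq table (34741 of 34945 probe sets with 1 symbol matched).

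KO was compared with WT by the two-sided moderated test of limma 3.58.1 (R 4.3.3), without covariates or a filter on dim genes, with Benjamini-Hochberg adjustment over 18193 genes. A probe set is called dim here where its mean is below the median of all probe set means, 5.87.

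The genes and lists were chosen with earlier results of these data known. Named beside the 9 genes are all hemidesmosome partners measured here and the 3 genes of smallest p in each of the other adhesion lists. Array checks, the 5 genes of most similar pattern, and Camk1g and Mir205hg near the microRNA are named too.

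The fit was tested on simulated data with 200 changed genes and independent noise on each array. It recovered 4.3% of 1.5-fold, 44.7% of 2-fold, 73.9% of 4-fold and 85.5% of 8-fold changes. It also called 3.55 unchanged genes per simulation. On the real arrays, where 2 genes passed, recovery may be lower. The sex-linked Kdm5d and Uty differed there by 4.49 and 3.48 (log2) and did not pass. The largest difference of the anchoring genes, 0.22 (log2), was smaller than a 1.5-fold change. Failing the adjusted threshold therefore cannot show that these genes were unchanged. Alternatives were quantile normalization again or median centring, leaving out dim genes, averaging or separately testing the probe sets of a gene, a replicate block, other eBayes settings and each array left out. Sequences are from RefSeq.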

Additional observations from a re-analysis of the deposited data

How the results depend on the processing

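None of the 9 genes passed the adjusted threshold with limma under any of the 12 alternatives. The smallest adjusted p was 0.81 in the 8 with all 4 arrays and 0.38 in the 4 with 1 array left out, where the lone array of a genotype is assumed to vary like the other genotype. The 1 gene with an unadjusted p under 0.05 in the fit as reported was Lama3. In 5 alternatives (no dim genes, every probe set, the replicate block and both eBayes settings) the differences of the 9 genes are those reported by construction. In the other 7, 52 of 63 differences kept their direction and 11 did not. Itga3 was -0.0106 with quantile normalization again and -0.0206 with the mean of probe sets, and ran from 0 to 0.0181 with single arrays left out. Col17a1 was 0.0030 with quantile normalization again and ran from -0.0284 to 0.0222, Itgb1 was 0.0445 with the mean of probe sets and ran from -0.12 to 0.11, and Itga6 ran from -0.0715 to 0.35. The median of the 9 genes ran from 0.0181 to 0.20 with single arrays left out. The number of genes past the threshold, 2 as reported, was 3 with quantile normalization again, 3 with median centring, 0 with the mean of probe sets, 0 with every probe set tested singly, 0 with the replicate block and 0 without any 1 array. In counts added after the data were seen, the genes with every KO array above every WT array ran from 3 to 7 without single arrays. Same-numbered arrays deviated together (r = 0.56 across genes, which are not replicates), but the labels tie the numbers to no shared animal or day and there are 2 numbers only. With the number as a block, which cannot move a difference in this balanced design (median 0.12), 0 of the 9 genes passed. The cause of these shifts was not tested. The table has no detection calls, so signal over background was not assessed.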
